A study of Gallus gallus with 16 samples.

Results

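The 134 genes described here had higher pineal ratios in the early night than at lights-on in birds kept in darkness at night. They are 2.01% of the 6660 genes that carried a gene symbol and could be tested. Members were chosen by their ratios on the 8 dark arrays: a gene was a member when the mean of the 4 dark pools taken at zeitgeber time 0 (ZT0, the hour when lights come on) lay at least 0.8 log2 units below the mean of each of the 2 sets of dark pools taken at ZT14, 2 h after lights-off. CRY1, CHRNB4, MACIR, SLC34A2 and SLC6A15 met these differences and were left out by name, and C16orf89, DBH, KEL, TRIM50 and USP53 met them but had too few values to be tested. The opposite rule, with ZT0 above both ZT14 sets, was met by 81 genes, or 1.22%.

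The pineal gland of birds carries its own clock and its own photoreceptor proteins, and it makes melatonin in darkness. Light at night lowers the activity of the last steps of melatonin synthesis within a short time and shifts the phase of the clock, and the direction of the shift depends on whether the light falls early or late in the night. Of 34 measured genes in the lists for the core clock, melatonin synthesis, phototransduction and pineal transcription factors, 0 were members, although CRY1, a repressor in the clock loop, met the differences. With a member share of 2.01% over all genes with a symbol, 0 of 34 is near that share and is no result about these genes.

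All birds were male Rhode Island Red chicks, 1 week old, and each array carried RNA from a pool of 5 to 6 pineal glands against a reference made from all 16 pools. The ZT0 arrays hold 4 dark pools on a cycle of 12 h light and 12 h dark and 4 pools of birds on the same cycle that were lit for 2 h late in the last night, from ZT22 to ZT24; both belong to paradigm 1. In paradigm 2, 2 dark pools and 2 pools lit from ZT12 to ZT14 were taken at ZT14. In paradigm 3, also taken at ZT14, 2 dark pools on the 12 h cycle (numbered 3 and 4) stand beside 2 pools of birds kept on a long day, which the design text gives as 15 h light and 9 h dark and the sample titles as 17 h and 7 h. Every ZT0 pool is thus from paradigm 1 and every ZT14 pool from paradigm 2 or 3, so time of day and paradigm cannot be told apart in the dark arrays or in the lit ones.

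The values are the authors' deposited log ratios, taken as log2. Neither the log base nor the numerator is stated in the sources used here: "higher" means a higher deposited ratio, and if the reference was the numerator every direction below turns together. A ratio to a pineal reference gives no level, so it does not show whether a tissue's defining transcripts were present, and levels of different genes cannot be compared. In pooled tissue, fewer cells of a type and less RNA per cell cannot be told apart. The arrays of paradigm 3 were the most spread, with SDs over probes of 0.82 to 1.08 against 0.2485 to 0.5465 on the other arrays. Another 3 arrays, ZT0 dark pools 3 and 4 and late-night light pool 4, carry slide numbers set apart from the rest and are called the second slide series here. No label names a series or says whether these slides were a separate print or hybridisation run. Late-night light pool 3, not in that series by slide number, had an SD over probes of 0.4795, within the 0.449 to 0.547 of the series. ZT0 pools 1 and 2, dark and lit, had 0.249 to 0.338. Plant control spots, which measure no chicken transcript, also moved with time and paradigm: the median of 32 RUBISCO spots was -0.0447 to 0.866 on the ZT0 arrays and -1.88 to -0.412 on the ZT14 arrays, opposite in sign to the members. Cab spots ranged from 0.113 to 0.513 at ZT0 and from -1.02 to -0.077 at ZT14, while the ranges of the NAC1 and PRKase spots overlapped. Not all control spots ran against the members. In paradigm 2 alone the PRKase spots were at 0.105 to 0.194, above their ZT0 range of -0.122 to 0.0483. The part of these array differences in the members' values was not tested.

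The size of the differences that chose the members is a description and carries no test. The dark difference between ZT14 and ZT0 had a median of 1.04 over the 134 members in paradigm 2, from 0.80 to 3.10, and of 1.58 in paradigm 3, from 0.80 to 4.86. Every ZT14 dark array lay above every ZT0 dark array for 87 members, 64.9%, against 6.38% of all 12532 genes, a share that the rule itself sets. At the edge, TMEM30CP, POPDC2 and SUSD2 were just inside with a smaller difference of 0.80 each, and DCDC2, PRDM10 and CHST9 were just outside at 0.796, 0.792 and 0.789. A gene measured by 1 probe was commoner among members, at 89.6%, than among all genes with a symbol, at 71.2%. Of the 14 members with 2 probes, 12 had both probes positive in both dark differences, and HINTW and PIK3CD did not.

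**Figure D1:**
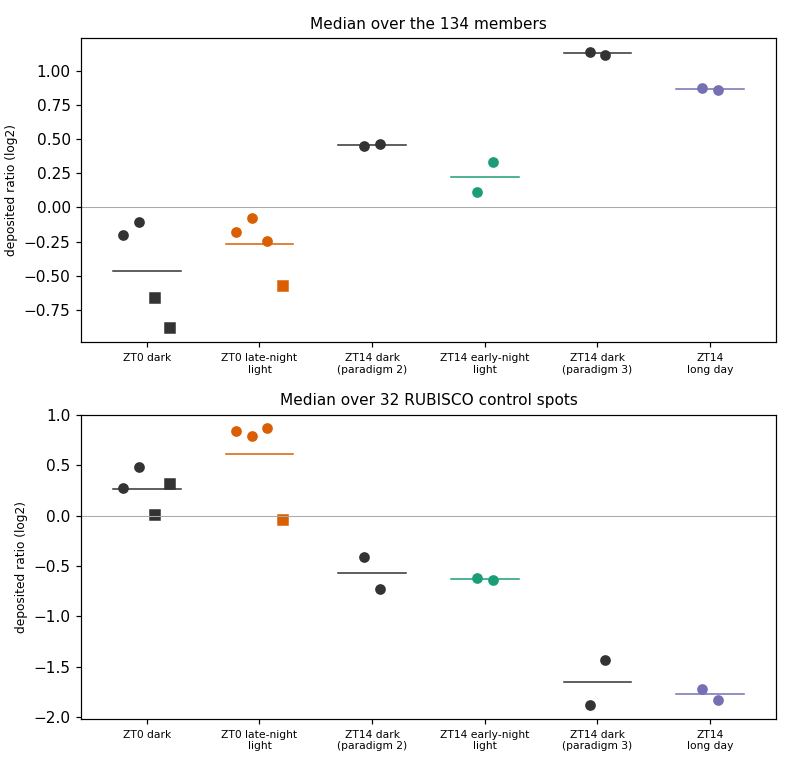
Median deposited ratio (log2, vertical axis) on each of the 16 arrays by group, for the 134 members (top) and for 32 RUBISCO plant control spots (bottom). Points are arrays, squares the 3 arrays of the second slide series, and lines group means. The member medians lie between -0.887 and -0.0741 at ZT0 and between 0.117 and 1.14 at ZT14, and the RUBISCO spots run the other way, which not all control spots did.

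Array by array, the median over the members was -0.201, -0.105, -0.662 and -0.887 in ZT0 dark pools 1 to 4. It was 0.451 and 0.463 in the dark pools of paradigm 2 and 1.14 and 1.12 in those of paradigm 3. The lowest values are those of the ZT0 arrays of the second slide series. On the lit arrays, which did not enter the rule, the median was -0.181, -0.0741, -0.244 and -0.576 after late-night light, 0.117 and 0.330 after early-night light, and 0.875 and 0.863 on the long day. No ZT14 lit array had a median as low as any ZT0 lit array, as the plot of medians by array shows. The same held for the dark arrays, where the rule favours it.

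Membership often rested on 1 array. Of the 134 genes, 34 met the rule whichever dark array was left out and 100 did not. Leaving out paradigm 2 dark pool 2 lost 45, ZT0 dark pool 4 lost 43, paradigm 2 dark pool 1 lost 31, ZT0 dark pool 3 lost 28 and paradigm 3 dark pool 3 lost 21, while each of the other 3 dark arrays lost 6 to 10. Without the 3 arrays of the second slide series 60 of the 134 met the rule.

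KDM2B and FRK show this. G0S2 met the rule whichever dark array was left out, but not without the second slide series. KDM2B, a histone lysine demethylase, was at 0.07, 0.02, 0.24 and -5.42 in the ZT0 dark pools and at 0.43 and 1.50 in the paradigm 2 dark pools and -0.48 and 0.11 in the paradigm 3 ones. Without ZT0 dark pool 4 it did not meet the rule, and its other 3 ZT0 dark values lie among the ZT14 values. FRK, a Src-family kinase of epithelia, had 0.02, -0.21, -1.02 and -0.26 in the ZT0 dark pools, 0.22 and 5.24 in the paradigm 2 dark pools and 0.64 and 1.94 in the paradigm 3 ones, so that a single pool at 5.24 carried its paradigm 2 difference. G0S2, an inhibitor of triglyceride lipolysis, was at -0.19, 0.05, -3.21 and -4.07 in the ZT0 dark pools and -0.26, -0.28, 0.07 and -3.91 after late-night light. The 3 low values are those of the second slide series; the other ZT0 arrays lie among the 8 ZT14 values of G0S2, which run from -0.41 to 0.52.

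For SYT10 and SIM2, as for FRK, every ZT14 dark pool lay above every ZT0 dark pool, a separation that the rule favours. SYT10 met the rule whichever dark array was left out, while SIM2 did not meet it without paradigm 2 dark pool 1. SYT10, a vesicle calcium sensor of the synaptotagmin family that acts in the secretion of peptides from mammalian neurons, was at -0.67, -1.15, -1.07 and -0.56 in the ZT0 dark pools, 1.43 and 1.32 in the dark pools of paradigm 2 and 1.92 and 0.99 in those of paradigm 3. Its late-night light pools split, at 1.62, 1.40, -1.84 and -1.87, so that 2 of them lay with the ZT14 values and 2 far below. The ZT14 lit pools were at 0.80 and 0.97 in early-night light and 1.63 and 1.33 on the long day, and the lit difference of 1.36 ± 0.68 was not called. SIM2, a bHLH-PAS transcription factor of midline development, ranged from -1.15 to -0.29 in the ZT0 dark pools, with ZT14 dark values of 3.00 and -0.16 in paradigm 2 and 0.95 and 1.09 in paradigm 3. The remaining members with the largest rule differences, by the smaller of the 2, were CAPN3 at 2.30, FBXO43 at 1.86, LOC408038 at 1.83, ANKS3 at 1.62, NRAP at 1.52, ABCA13 at 1.51, DUSP13 at 1.50 and GLTSCR1L at 1.47.

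Whether the members differed between the same 2 times in birds that had received light was tested as a difference between the 8 lit arrays, none of which chose the members; the spread between pools came from all 16 arrays, the dark ones included. In the lit pools 35 of the 134 members were higher at ZT14 than at ZT0 and 0 were lower, at a Benjamini-Hochberg adjusted p under 0.05 in limma, a linear model fitted to all genes at once. Errors written with ± are standard errors of that fit, folds are 2 to the power of a difference, and a leave-out is a refit without 1 of the 16 arrays. Called higher were 26.1% of the members, against 6.35% of all 12532 genes and 5.93% of the genes with a symbol. The difference (the mean of early-night light and the long day minus late-night light) was positive for 130 members, 97% against 53.7% of all genes, and had a median of 0.91 over the members against 0.03 over all genes. All 4 ZT14 lit arrays lay above all 4 ZT0 lit arrays for 39 members, 29.1% against 6.06% of all genes. With the 8 lit arrays alone in the fit 43 members were called (32.1% beside 6.23% of all genes), 31 of them among the 35. The negative members were KDM2B at -0.38, AVP at -0.38, POPDC2 at -0.13 and RGS5 at -0.08, and no test called them. The 2 probes of POPDC2 disagreed, with lit differences of 0.31 and -0.57.

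The count of members called depended on single arrays and on how the arrays were scaled. With the pool number as a block it was 9 (6.72%) beside 2.03% of all genes. With all arrays 35 members stood beside 796 of all 12532 genes called higher. Without late-night light pool 4 the count was 16, beside 410 of all genes. Without late-night light pool 1 or pool 3 it was 23, beside 486 and 452. Leaving out early-night light pool 1 or 2 leaves 1 array in that group. The median difference of the members was then 0.93 and 0.84. Scaling the arrays to 1 spread gave 19 members (14.2%) beside 3.05% of all genes. Leaving out the second slide series gave 17 (12.7%) beside 3.15%. Differences between times remain differences between paradigms here, since the lit ZT0 pools are all of paradigm 1.

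**Figure D2:**
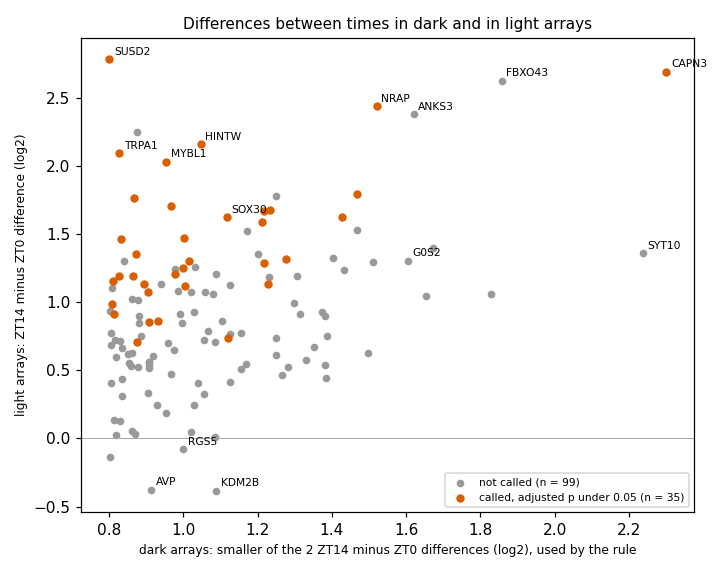
Each of the 134 members by the smaller of its 2 dark ZT14 minus ZT0 differences (log2, horizontal axis, used to choose the members) and its ZT14 minus ZT0 difference in the lit arrays (log2, vertical axis, not used). The 35 orange points were called higher in the lit arrays; 130 of 134 points lie above 0.

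The lit ZT14 groups did not give alike counts, and these counts depend on the fit. The fit takes 1 spread per gene for all groups. Residual SDs per array, however, were 0.251 to 0.371 in paradigm 1, 0.224 to 0.258 in paradigm 2 and 0.379 to 0.471 in paradigm 3. Early-night light alone against late-night light, 2 arrays against 4, called 0 of the 134 members higher, with 22 members and 1186 of all genes at an unadjusted p under 0.05, and 0.0718% of all genes were called higher. The median difference of the members was 0.49 and 124 were positive, 92.5% against 48.8% of all genes. The long day against late-night light called 55 members higher, 41% against 14.9% of all genes, with a median of 1.20 and 128 positive. Without long-day pool 1, which leaves 1 long-day array, the median was 1.23. After scaling the arrays the count was 24 (17.9%) beside 6.54%. The long day and early-night light, both at ZT14, were also compared directly, 2 arrays against 2. On the long day 11 members were higher, 8.21%, a share near the 8.37% of all genes. They were SUSD2, GPR50, BFSP1, L3MBTL3, CHRNA6, ZPAX, FAM117B, FYCO1, PROKR1, PLEKHA7 and CDH23, with differences from 2.49 ± 0.47 for SUSD2 to 0.94 ± 0.28 for CDH23. The median difference of the members was 0.68. Without early-night light pool 1 or 2, which leaves 1 array in that group, it was 0.59 and 0.76. After scaling the arrays 0 members were called, beside 1.31% of all genes. With only the compared arrays in the fit, 0 of all 12532 genes were called.

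By function, a sorting made by hand after the values were known, the members fell into 11 groups of 6 to 15 genes and 21 genes without a group. Genes best known from muscle, from the germ line and from epithelia were among them, which are tissues other than the pineal. No list of germ line genes or of epithelial and gut genes was examined, so their share among all measured genes is not known. Of the 9 measured skeletal and heart muscle markers, 1 was a member, TNNI1. Per group, the median lit difference ran from 0.61 for kinases and G protein signalling to 1.58 for the germ line genes, and members were called in every group except steroid, lipid and amino acid metabolism. No test was made between groups. The list counts given below stand beside 796 of all 12532 genes called higher in the lit arrays and 672 called lower, and no list was tested.

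Muscle genes made up 9 members, of which 3 were called higher at ZT14 in the lit arrays. NRAP, an actin-anchoring protein of the junctions and growing myofibrils of muscle, was at -0.33, -0.16, -2.29 and -1.60 in the late-night light pools. Its ZT14 lit values were 0.07 and 0.74 in early-night light and 2.61 and 1.96 on the long day, all above the ZT0 lit values. The difference of 2.44 ± 0.46 (5.43-fold, adjusted p = 0.00736 in limma) was called whichever array was left out. In the dark pools NRAP showed 0.06, -0.15, -1.09 and -1.29 at ZT0, 1.34 and 0.46 in paradigm 2 and 2.79 and 3.06 in paradigm 3.

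CAPN3, the calcium-dependent protease of skeletal muscle, had -0.55, -2.45, -0.23 and -1.35 in the late-night light pools, -0.65 and 0.85 in early-night light and 1.80 and 4.18 on the long day. Its lit groups overlapped through early-night light pool 1, and the difference was 2.69 ± 0.68 (adjusted p = 0.0246 in limma). The call was lost without long-day pool 2, early-night light pool 2 or late-night light pool 2 or 4, with differences from 2.10 to 2.62 there. CTNNA3, the alpha-catenin of heart muscle junctions, differed by 1.08 ± 0.24 (0.78 to 1.38 over the 16 leave-outs) and lost its call without early-night light pool 1. Its 2 probes gave lit differences of 0.21 and 1.95. The slow troponin TNNI1 at 0.76 ± 0.44, the small cytoskeletal protein SMPX at 1.36 ± 0.63 and the cAMP-binding membrane protein POPDC2 at -0.13 ± 0.36 were not called, nor were SGCD, TBX5 and ASB2. The median ratio of the 9 measured skeletal and heart muscle markers ranged from -0.217 to 0.126 over the ZT0 arrays and from -0.00784 to 0.935 over the ZT14 arrays, with overlap, and 2 of these 9 were called higher in the lit arrays; the part of muscle tissue in these values was not tested.

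Germ line and egg genes, 8 members, had 3 called. MYBL1, a Myb transcription factor required in mouse spermatocytes, was at -0.96, 0.08, -0.96 and -1.24 in the late-night light pools, 0.75 and 0.20 in early-night light and 2.10 and 1.98 on the long day. The groups did not overlap and the difference was 2.03 ± 0.44 (adjusted p = 0.0134 in limma), called except without early-night light pool 1, where it was 1.90. SOX30, an HMG-box factor of mouse sperm development, had -0.38, -0.63, -0.32 and -1.34 in late-night light, 0.52 and 0.35 in early-night light and 1.66 and 1.29 on the long day. Both of its probes were higher at ZT14, by 1.39 and 1.86, and its difference of 1.62 ± 0.33 (adjusted p = 0.00978) was called in every leave-out of 1 array. ASZ1, which acts in the silencing of transposons in the germ line of mice, differed by 1.68 ± 0.47 (1.17 to 1.93 over the leave-outs) and lost its call without early-night light pool 1 or 2, long-day pool 1 or 2 or late-night light pool 2 or 4.

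FBXO43, the inhibitor of the anaphase-promoting complex that holds eggs in meiosis, showed a larger difference that was not called. Its lit values were -0.63, -0.19, -3.80 and -0.47 at ZT0, 1.15 and 0.45 in early-night light and 2.08 and 1.74 on the long day, and its dark values 0.02, -0.06, -0.23 and -0.60 at ZT0, 3.17 and 0.10 in paradigm 2 and 6.22 and 1.23 in paradigm 3. The lit groups were apart, with a single late-night light pool at -3.80 and a difference of 2.63 ± 1.00 (adjusted p = 0.106 in limma). The pool at 6.22 was dark and entered this comparison only through the spread of the fit. VTG3, a vitellogenin (the yolk precursor family), was at 5.79 and 0.97 in the paradigm 3 dark pools and 3.24 and 0.71 in early-night light, against 0.65 to 0.98 on the other 4 ZT14 arrays and -1.71 to 0.71 at ZT0. The kinase MOS, the egg-coat gene ZPAX and the stem cell factor SALL4 differed by 1.10, 1.13 and 1.08 and were not called.

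Epithelial and gut genes were the largest named group beside the kinases, 15 members with 6 called: TFF3 (a mucus peptide), VIL1 (villin of brush borders), FABP2 (the intestinal fatty acid carrier), GPA33 (an intestinal surface antigen), SCNN1B (a subunit of the epithelial sodium channel) and GJB5 (a connexin). SCNN1B had a small difference of 0.74 ± 0.16 with values of -0.49, -0.19, -0.40 and -0.35 in late-night light, 0.17 and 0.11 in early-night light and 0.65 and 0.59 on the long day. It was called whichever array was left out. TFF3 had the largest difference of the 6, 1.77 ± 0.47, with values of -0.80, -0.29, -2.73 and -1.02 at ZT0 in light, 0.28 and -0.34 in early-night light and 0.56 and 1.73 on the long day; the groups overlapped, and the call was lost without early-night light pool 1 or 2, long-day pool 2 or late-night light pool 3 or 4 (1.26 to 2.07 over all leave-outs). VIL1 at 1.36 ± 0.33 (1.17 to 1.66) lost its call without early-night light pool 1 or 2 or late-night light pool 2 or 4, and GJB5 at 0.71 ± 0.19 (0.61 to 0.81) without early-night light pool 1 or 2, long-day pool 2 or late-night light pool 1, 3 or 4. The calls of FABP2 at 1.32 ± 0.40 (0.98 to 1.49) and GPA33 at 1.19 ± 0.36 (0.93 to 1.33) were the least firm, lost in 11 and 13 of the 16 leave-outs, dark arrays among them. COL17A1, a collagen of skin cell anchors, was 1.14 ± 0.41 over the 3 late-night light pools that measured it, and EPHA1, an ephrin receptor, was 0.58 ± 0.39.

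Among genes of neural signalling, 12 members, TRPA1, KCNIP1, PROKR1 and FLRT2 were called. TRPA1, a cation channel that senses irritants and, in birds, heat, stood below the reference on most arrays: -1.40, -2.61, -3.99 and -2.72 in late-night light, -0.42 and -0.79 in early-night light and -0.05 and -1.07 on the long day. All ZT14 lit values exceed all ZT0 lit values, with a difference of 2.10 ± 0.42 (4.27-fold, adjusted p = 0.00986 in limma), called in every leave-out. Its dark values were -1.77, -1.76, -1.55 and -0.89 at ZT0, -0.52 and -0.81 in paradigm 2 and 0.47 and 0.65 in paradigm 3. PROKR1, a receptor for prokineticins, was at -0.14, -0.15, -0.49 and -0.97 in late-night light, -0.28 and 0.21 in early-night light and 1.66 and 1.19 on the long day. In the dark pools of paradigm 3, on the 12 h cycle, it was at 2.4 and 2.7, above the long-day values. Its difference was 1.13 ± 0.25 (adjusted p = 0.0136), with the call lost without early-night light pool 2 (0.95 to 1.25 over the leave-outs), and the long day was above early-night light by 1.46 ± 0.35 (adjusted p = 0.0165).

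KCNIP1, a calcium-binding subunit of A-type potassium channels, differed by 0.98 ± 0.27 and FLRT2, an adhesion and guidance protein, by 0.92 ± 0.25. KCNIP1 lost its call without early-night light pool 1 or 2, long-day pool 1 or 2 or late-night light pool 3 or 4 (0.79 to 1.12), and FLRT2 without early-night light pool 1 or 2, long-day pool 1 or 2 or late-night light pool 1, 3 or 4 (0.71 to 1.00). GPR50, of the melatonin receptor family, was at 0.10, -0.30, -1.05 and -0.40 in late-night light. It was at -0.21 and -0.34 in early-night light and 1.88 and 2.01 on the long day. Its paradigm 3 dark pools, on the 12 h cycle, were at 2.33 and 0.28. Among the lit pools the long-day values were the highest, above early-night light by 2.22 ± 0.58 (adjusted p = 0.0236), while the ZT14 against ZT0 difference in light missed the threshold at 1.25 ± 0.41 (adjusted p = 0.066). CHRNA6, a nicotinic receptor subunit, was -0.01, -0.54, 0.06 and -0.93 in late-night light, -0.25 and -0.26 in early-night light and 2.00 and 1.16 on the long day. The long day exceeded early-night light by 1.84 ± 0.51 (adjusted p = 0.0296 in limma). The paradigm 3 dark pools of CHRNA6, on the 12 h cycle, were at -0.11 and 1.80. Ion channels as a list had 12 of 95 measured genes called higher in the lit arrays and 2 lower, beside 796 higher and 672 lower of all 12532 genes. The list held 3 members, CHRNA6, KCNIP1 and the glutamate receptor subunit GRIA2, which was 0.77 ± 0.32. The list is not complete: the members TRPA1 and SCNN1B, also channel genes, were not on it.

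AVP and CCK, the neuropeptides among the members, were not called in the lit arrays. AVP, which in birds encodes vasotocin, was at -1.24, 0.26, -0.60 and -0.07 in the ZT0 dark pools and at -0.98, 1.41, 0.49 and 1.12 after late-night light. Its ZT14 values were 0.67 and 0.33 in the dark pools of paradigm 2, 1.23 and -0.06 in those of paradigm 3, -0.35 and -0.11 in early-night light and 1.16 and -0.18 on the long day, so that the lit groups overlapped. CCK, cholecystokinin, was 0.30, -0.82, -0.54 and -0.98 in the ZT0 dark pools and 2.35, 1.02, -1.02 and -1.32 after late-night light, a wider range than its ZT14 values of -0.21 to 1.48. The lit differences were -0.38 ± 0.50 for AVP and 0.33 ± 0.67 for CCK, neither called.

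Transcription and chromatin genes gave 14 members and 4 calls. GLTSCR1L, a subunit of a SWI/SNF remodelling complex, was tight at ZT0, -0.18, -0.29, -0.20 and -0.28 in late-night light, and higher at ZT14, 0.26 and 0.99 in early-night light and 2.09 and 2.90 on the long day. The difference was 1.80 ± 0.43 (adjusted p = 0.0192) and the call was lost without early-night light pool 2, where it was 1.62. CNOT2, a core subunit of the CCR4-NOT deadenylase, differed by 1.71 ± 0.41, with late-night light pool 2 at 0.29 among the ZT14 values, and lost its call without early-night light pool 1 or 2 or late-night light pool 1, 3 or 4, where it was 1.55 to 1.77. EVX2, a homeobox factor, differed by 1.67 ± 0.39 (1.32 to 2.03 over the leave-outs) and lost it without early-night light pool 1 or late-night light pool 4. L3MBTL3, a methyl-lysine reader, differed by 1.25 ± 0.32 (0.95 to 1.44) and lost it without early-night light pool 1 or 2, long-day pool 2 or late-night light pool 4.

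RUNX1T1, a transcriptional corepressor, had the largest single value among the members, 7.22 and 0.77 in the paradigm 3 dark pools. Its lit values were -0.33, -0.20, -0.16 and -0.98 at ZT0, 0.40 and 0.60 in early-night light and 3.19 and 1.26 on the long day, which did not overlap between times, yet its difference of 1.78 ± 0.96 was not called. ZNF827, SIM2 and the methyltransferase SETD1A were at 1.24 ± 0.39, 1.40 ± 0.49 and 0.56 ± 0.43, not called. Of the list of transcription factors and nuclear receptors, 9 of 162 measured genes were called higher and 7 lower in the lit arrays, and of chromatin regulators 1 and 3 of 73. The transcription factor list is not complete: SIM2, EVX2 and MYBL1 were members outside it.

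Cilia and centrosome genes, 6 members, had 2 called, CEP55 (a midbody protein of cell division) at 1.59 ± 0.42 and RFX2 (a transcription factor of ciliated cells) at 0.86 ± 0.24. CEP55 lost its call without early-night light pool 2, long-day pool 2 or late-night light pool 1 or 4, where it was 1.28 to 1.56, and RFX2 lost it in 8 leave-outs (0.71 to 0.99), among them each of the early-night light and long-day pools. ANKS3, a partner of proteins of the ciliary base, had -0.13, -0.32, -5.48 and 0.04 in late-night light against 1.30 and 0.51 in early-night light and 1.11 and 0.70 on the long day, apart but not called at 2.38 ± 0.94, with 1 pool at -5.48. Of the 6 ubiquitin and cell death members, RNFT2, CYLD and KLHL28 were called. KLHL28, a BTB-Kelch protein, was -0.24, -0.21, -0.86 and -0.27 in late-night light, 0.38 and 0.91 in early-night light and 0.82 and 2.19 on the long day. These do not overlap, and the difference of 1.47 ± 0.29 (adjusted p = 0.00853 in limma) was called in every leave-out. RNFT2, a RING-finger membrane protein, at 1.20 ± 0.28 lost its call without early-night light pool 1, where it was 1.04, and the deubiquitinase CYLD at 1.12 ± 0.31 (0.82 to 1.42) lost it without early-night light pool 1 or 2, long-day pool 1 or late-night light pool 1, 2, 3 or 4. In the whole proteasome and ubiquitin list 9 of 171 genes were called higher and 21 lower.

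Kinase and G protein genes, 15 members, had the lowest median and 1 call, the Ras pathway scaffold KSR1 at 1.31 ± 0.38, lost in 10 of the 16 leave-outs (0.98 to 1.62), dark arrays among them. RGS5, a regulator of G protein signalling and a marker of pericytes, was at 0.22 and 1.53 in the dark pools of paradigm 2 and 1.64 and 1.35 in those of paradigm 3. After early-night light it was -0.17 and 0.05 and on the long day -0.34 and 0.04, within its ZT0 range of -0.33 to 0.30 except for long-day pool 1, which lay just below it. The median ratio of the 14 blood vessel and pericyte markers was -0.0693 to 0.135 on the ZT0 arrays and -0.143 to 0.169 on the ZT14 arrays. RICTOR, the defining subunit of mTOR complex 2, was 0.01 ± 0.39, adenylyl cyclase ADCY7 0.05 ± 0.80, the phosphatase DUSP13 0.63 ± 0.38, CDK18 0.77 ± 0.37 and PIK3CD 0.60 ± 0.52. Of the 222 genes on the list of kinases, phosphatases and small GTPase regulators, 7 were called higher and 11 lower.

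Adhesion, matrix and guidance genes, 13 members, had 2 called: MEGF10, an engulfment receptor of glia, at 1.21 ± 0.27, and the giant cadherin DCHS1 at 1.63 ± 0.46. MEGF10 was 0.23, -0.52, -0.48 and -0.87 in late-night light, 0.42 and 0.27 in early-night light and 0.76 and 1.73 on the long day, and was called except without early-night light pool 1 (0.96 to 1.45 over the leave-outs). DCHS1 lost its call in 9 leave-outs (1.19 to 2.06), among them each late-night light pool and both dark pools of paradigm 2. The receptors NOTCH2 at 0.44 ± 0.54, PLXNC1 at 0.93 ± 0.42 and PDGFRA at 0.67 ± 0.32 and the collagen COL11A1 at 0.72 ± 0.41 were not called. Of 40 markers of meninges and fibroblast matrix, 3 were members, 3 were called higher and 1 lower in the lit arrays, and their median ratio was -0.164 to 0.19 at ZT0 and -0.0489 to 0.429 at ZT14.

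Vesicle and lysosome genes, 7 members, had 1 call. FYCO1, an adaptor that links RAB7 vesicles to microtubule motors, was -0.0029, 0.18, 0.39 and -0.63 in late-night light, -0.31 and 0.44 in early-night light and 1.53 and 1.72 on the long day. The long-day values and early-night light pool 2 lay above all ZT0 values, early-night light pool 1 lay among them, and the difference of 0.86 ± 0.25 lost its call in 10 leave-outs (0.66 to 1.05), dark arrays among them. The exocyst genes EXOC6B at 1.19 ± 0.36 and EXOC3L4 at 1.06 ± 0.40 and RAB11FIP5 at 0.68 ± 0.37 were not called. In the list of RAB, SNARE and vesicle traffic genes, 2 of 166 were called higher and 15 lower. The 8 metabolic members had 0 calls in limma and a median difference of 1.25. HSD3B7, an enzyme of bile acid synthesis, was the highest at 2.25 ± 0.89, with 0.07, -0.0036, 0.87 and -1.38 in late-night light, -0.24 and 1.73 in early-night light and 6.22 and 0.87 on the long day, where 1 pool at 6.22 set the mean. ABCA13, a lipid transporter, was 1.29 ± 0.55.

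Among members with no group, SUSD2, a sushi-domain membrane protein, had the largest lit difference of all. It was at -1.22, -0.46, -2.02 and -0.32 in late-night light, 0.88 and 0.18 in early-night light and 3.08 and 2.97 on the long day. The difference was 2.79 ± 0.33 (6.89-fold, adjusted p = 0.00104 in limma) and was called in every leave-out, and the long day exceeded early-night light by 2.49 ± 0.47 (adjusted p = 0.00502). Its dark values were -0.03, -0.37, -0.69 and -0.65 at ZT0, 0.34 and 0.39 in paradigm 2 and 0.81 and 0.05 in paradigm 3, so its place at the edge of the rule and its large lit difference come from different arrays. FAM117B at 1.47 ± 0.27, TMEM45B at 1.15 ± 0.25 and C21orf62 at 1.29 ± 0.26, genes of little known function, were also called in every leave-out. MX1, an antiviral GTPase induced by interferon, was 1.14 ± 0.33 and lost its call in 11 leave-outs (0.94 to 1.28), dark arrays among them; 1 of the 8 measured interferon response genes was called, and that was MX1.

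HINTW lies on the W chromosome, which male birds lack, and all pools are labelled male. Its ratios were -1.08, -0.99, -1.07 and -1.31 in late-night light, 0.74 and 1.03 in early-night light and 1.40 and 1.02 on the long day, and in the dark -0.57, 1.39, -1.10 and -1.69 at ZT0, 0.79 and 0.32 in paradigm 2 and 1.53 and 1.20 in paradigm 3. All 8 ZT14 values are positive and all ZT0 values negative except dark pool 2. The lit difference was 2.16 ± 0.47 (adjusted p = 0.0134 in limma), called in every leave-out. Its 2 probes disagreed, with lit differences of 4.17 and 0.15. LOC431003, the other member on the W chromosome, differed by 0.86 ± 0.34 in the lit arrays (adjusted p = 0.118). Over all 16 arrays the ZT14 and ZT0 ranges overlapped for each of the 10 measured genes placed on the W chromosome, HINTW included. LOC427010, a W gene that is not a member, was 0.0064 to 1.365 at ZT14 and -1.39 to 0.671 at ZT0. Its highest ZT0 value was in dark pool 2, as for HINTW. Not all W genes ran this way: NEDD4L was -0.229 to 0.599 at ZT14 and -0.463 to 0.645 at ZT0. Ratios do not show whether a W-linked transcript was present, and the part of the sex of the birds in these values was not tested.

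**Figure D3:**
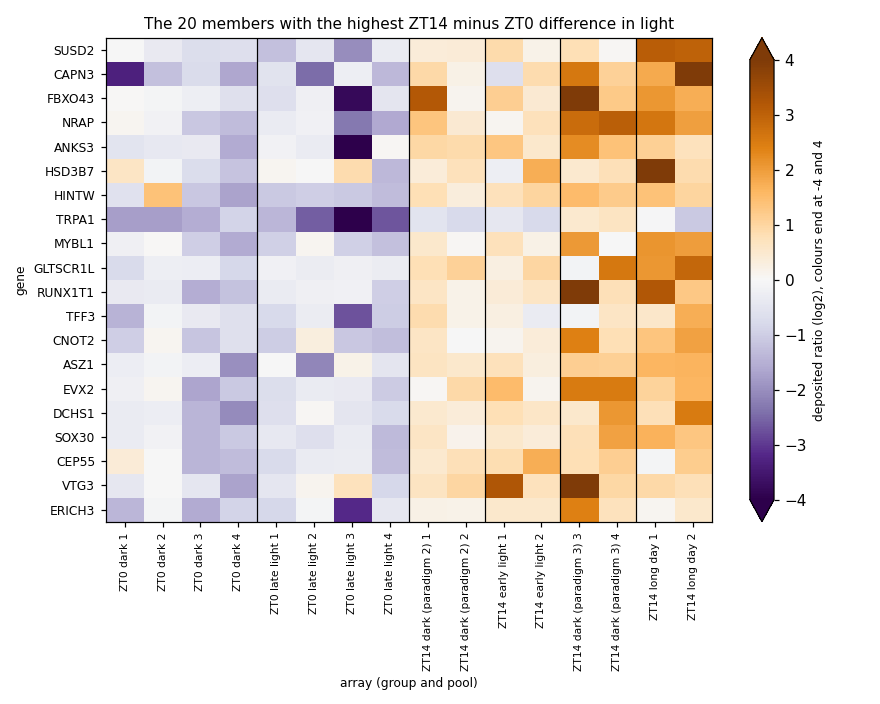
Deposited ratios (log2, colour, ending at -4 and 4) of the 20 members with the highest ZT14 minus ZT0 difference in lit arrays (rows), on each of the 16 arrays (columns, grouped). Late-night light pool 3 holds the lowest values of ANKS3 at -5.48 and TRPA1 at -3.99, and the long-day columns are high for SUSD2 at 3.08 and 2.97.

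Light against darkness at the same time of day was the study's own question, and for these genes it can only be described, because the dark arrays that chose the members are 1 side of each difference. Choosing genes low in the ZT0 dark pools and high in the ZT14 dark pools by itself pushes light minus dark up at ZT0 and down at ZT14. Late-night light minus ZT0 dark had a median of 0.16 over the members, with 98 positive, 73.1% against 49.1% of all genes. It was 0.00877 without ZT0 dark pool 4, and without the second slide series it was -0.0385, with 62 positive and 72 negative. Early-night light minus its dark pools had a median of -0.39, with 108 negative, 80.6% against 49.9%. The long day minus its dark pools had a median of -0.27, with 89 negative, 66.4% against 50.8%. After the arrays were scaled to 1 spread the long-day median was -0.0621.

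Nothing is read from a test of these differences. On the long day SUSD2 was 2.59 ± 0.47 and FYCO1 1.44 ± 0.36 above the paradigm 3 dark pools. RGS5 differed from those pools by -1.64 ± 0.34. These genes are examples, picked because their differences were large beside their standard errors, not by size alone. The paradigm 3 dark pools in these differences also chose the members, which favours a negative difference such as that of RGS5. On the long day limma called 3 of the 134 members in either direction, 2.24%, beside 2.94% of all genes. That share is near that of all genes and is no result about the members. HSD3B7 at 2.91 and VTG3 at -2.54 were larger in size than RGS5.

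**Figure D4:**
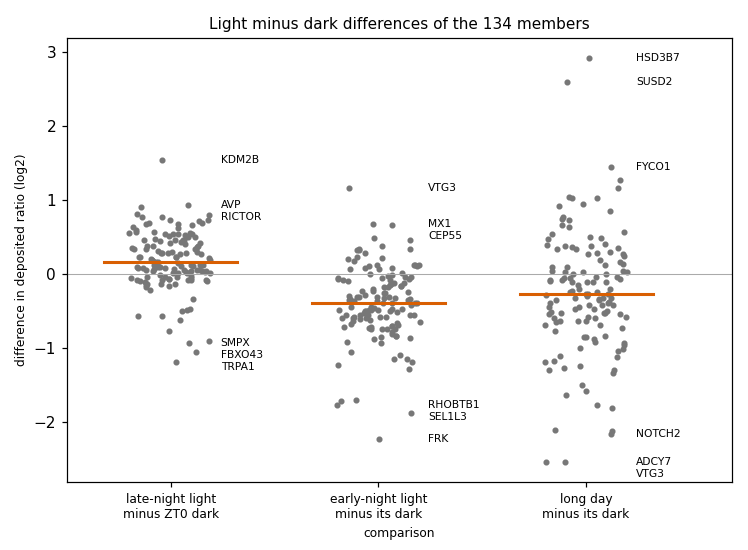
Light minus dark differences (log2, vertical axis) of the 134 members in the 3 paradigms (horizontal axis). Points are genes, orange lines medians of 0.16, -0.39 and -0.27, and the 3 highest and 3 lowest genes of each comparison are named, with overlapping names moved down; the dark arrays in each difference also chose the genes.

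Several of the extremes had a single outlying pool. In late-night light they were KDM2B at 1.53 ± 0.96, AVP at 0.92 ± 0.50 and RICTOR at 0.90 ± 0.39 on the high side and TRPA1 at -1.19 ± 0.42, FBXO43 at -1.05 ± 1.00 and SMPX at -0.93 ± 0.63 on the low side. RICTOR was at -0.65, 0.23, -1.05 and -0.61 in the ZT0 dark pools and -0.12, 0.20, 0.90 and 0.54 after late-night light. In early-night light VTG3 at 1.16 ± 1.17, MX1 at 0.67 ± 0.47 and CEP55 at 0.66 ± 0.59 were highest, and FRK at -2.24 ± 1.12 and SEL1L3 at -1.89 ± 1.00 were among the lowest. SEL1L3 was at 0.24 and 4.22 in the dark pools of paradigm 2 and 0.04 and 0.65 in light. On the long day HSD3B7 at 2.91 ± 1.25 stood beside SUSD2 and FYCO1 at the top, and VTG3 at -2.54 ± 1.17, ADCY7 at -2.54 ± 1.13 and NOTCH2 at -2.16 ± 0.76 at the bottom. For ADCY7 the paradigm 3 dark pools were at 4.41 and -0.28 and the long-day pools at -0.46 and -0.49. For NOTCH2 the dark pools were at 4.73 and 1.16 and the long-day pools at 1.21 and 0.36, so dark pool 3 of paradigm 3 set the mean of each.

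Most members belong to none of the 39 gene lists examined: 34 members were in a list and 100 in none, and 22 lists held no member. The lists are not complete: TRPA1, SIM2, EVX2 and AVP were members outside the lists of their own functions. These counts therefore do not show how many members have a given function. The 9 lists of housekeeping functions, among them ribosomal proteins, oxidative phosphorylation, glycolysis and heat shock, had 370 measured genes and 0 members, beside a member share of 2.01% over all genes with a symbol. For genes of the pineal itself, the lit arrays called 1 of 11 core clock genes higher and 1 lower, 1 of 7 melatonin synthesis genes higher and 2 lower, and of the 8 phototransduction genes and 8 pineal transcription factors 0 higher and 1 lower each. Over all 12532 genes 796 were called higher and 672 lower, and these short lists were not tested against that share. Among marker lists of other cell types not yet named, oligodendrocyte and Schwann cells gave BCAS1, at 0.77 ± 0.55, with a median ratio of the 5 markers of -0.773 to 0.601 at ZT0 and 0.182 to 0.821 at ZT14. Choroid plexus and ependyma gave RFX2, with a median ratio of the 12 markers of -0.314 to 0.167 at ZT0 and -0.177 to 0.422 at ZT14, and erythroid and thrombocyte markers gave F13A1 at 0.55 ± 0.30, with a median ratio of the 13 markers of -0.238 to 0.412 at ZT0 and -0.448 to 0.0822 at ZT14. The 16 neuron and synapse markers, GRIA2 among them, had median ratios of -0.086 to 0.376 at ZT0 and -0.203 to 0.354 at ZT14. None of the 10 cell type lists had medians that were apart between the ZT0 and ZT14 arrays, and the part of other cell types in the members' values was not tested.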

How the data were processed

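Each two-colour array carried an amplified pineal RNA pool in the Cy3 channel and the common reference in the Cy5 channel, with no dye swap, per the labels. The authors deposited 1 log ratio of the channels per probe and array, read here as log2. Which base, numerator, background correction and normalization they used is not given in the sources used here. Of 15769 probes, 160 control spots were left out; 9628 of the others had 1 symbol in the platform annotation and 5981 none, and 9486 gene IDs were found in the RefSeq gene table. Probes of a symbol were averaged, genes needed values on at least 2 arrays of every group, and 12532 were tested. Between 15554 and 15603 probes were measured per array; without intensities the distance of a signal from background cannot be given, and precision is limited by the number of arrays. There were 0 columns of other samples.

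Group means of all 16 arrays were compared in limma 3.58.1 under R 4.3.3 (10 residual degrees of freedom, 3.33 from the prior), with Benjamini-Hochberg adjustment over all 12532 genes and calls at adjusted p under 0.05. Errors with ± are standard errors of that fit. Since each pool is of other glands, a p-value reflects pool-to-pool spread; no paradigm was repeated. Members and gene lists were chosen with earlier results of these data known, and functional groups after the values were seen. Named genes are the 12 largest rule differences, the 10 highest and 5 lowest lit differences, the 3 highest and lowest light minus dark differences of each paradigm, up to 5 members of each list and the 3 genes on each side of the threshold; all others named were chosen after their values were seen. Alternatives were other normalizations, probe summaries, samples, slide series, pool number as a block and each array left out.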

Additional observations from a re-analysis of the deposited data

Results flagged for a closer look

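In the groups of 4 pools, 11 of 116 checks of named members had a pool far from the other 3 by Dixon's gap test; chance flags about 1 in 20 groups, but genes with 1 low ZT0 dark pool meet the rule more readily and others were named for an extreme difference, so that rate is no measure here. In ZT0 dark pool 4 these were ANKS3 at -1.58, KDM2B at -5.42 and POPDC2 at -2.22, and in ZT0 dark pool 3 PIK3CD at -2.96. In late-night light pool 3 they were ANKS3 at -5.48, FBXO43 at -3.80 and SMPX at -3.63. Late-night light pool 4 stood apart for G0S2 at -3.91, RAB11FIP5 at 0.68 and TMEM30CP at -0.65, and pool 2 for CNOT2 at 0.29.

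Control spots, which the comparisons do not use, differed between ZT14 and ZT0 arrays by -0.871 for Cab, -1.30 for the chicken genomic DNA spots and -1.60 for RUBISCO, with no overlap between times.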

How the results depend on the processing

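By the rule, 297 genes were members at a threshold of 0.6, 68 at 1.0, and 70 without the second slide series, 60 of them shared; leaving out each dark array gave 105 to 208. The count called in the lit arrays, 35, was 18 after quantile normalization, 19 after scaling, 17 without the second slide series and 15 to 29 with each compared array left out. Calls over all 12532 genes fell too, from 796 to 332 after quantile normalization, 382 after scaling and 395 without the second slide series. The range with arrays left out includes fits with 1 array in a group. Early-night light alone, 0 members, gave 2 after quantile normalization, beside 0.678% of all genes. It gave 1 with the lit arrays only, beside 5 of all 12532 genes, and 1 with the compared arrays only, beside 6. For the long day against late-night light, 1873 of all genes were called higher. That count fell with the count of members, to 579 after quantile normalization, 819 after scaling and 1118 with array weights. Without late-night light pool 4 it was 1510, beside 43 members. The long day, 55, gave 22 after quantile normalization, 24 after scaling, 25 with array weights and 34 to 54 with each compared array left out. The long day against early-night light, 11, gave 0 after quantile normalization, after scaling or with the compared arrays only, 17 with slide series as a block, 1 to 12 with each of its 4 arrays left out and 10 to 19 without another array. The light minus dark median on the long day, -0.27, was -0.0434 after quantile normalization, -0.0621 after scaling, -0.252 after centring and -0.351 to -0.283 with arrays left out; for early-night light arrays left out gave -0.472 to -0.212, and for late-night light 0.00877 to 0.296. Of the named genes, 15 called ones kept their sign in every alternative, and ADCY7, BCAS1, CCK, RGS5 and RICTOR, not called, turned sign 21 times in all. The causes were not tested.

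Pool numbers pair no glands; deviations of same-numbered pools correlated from -0.0784 to 0.309 over 26 pairs. With the replicate block the lit count was 9, all among the 35 (2.03% of all genes). The long day against early-night light then gave 18, beside 9.46% of all genes, and the long-day light minus dark median was -0.731. Signal over background is unknown, and each ZT14 group holds 2 arrays.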
